A study of Drosophila melanogaster with 3 samples.

Results

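Open chromatin was described at 9 genes of the Dpp branch of BMP signalling (dpp, gbb, tkv, sax, put, Mad, shn, brk and Dad) in the pupal abdominal epidermis of Drosophila melanogaster. A peak was counted for a gene when its summit lay inside the RefSeq span of that gene on the dm6 build, or when an end of that gene was closer to the summit than the ends of all other protein-coding genes. By this rule 108 of 34718 peaks, or 0.311%, belonged to the 9 genes: 24 to dpp, 1 to gbb, 24 to tkv, 0 to sax, 2 to put, 10 to Mad, 25 to shn, 6 to brk and 16 to Dad. ATAC-seq, which marks accessible DNA by where a transposase can cut it, was run on 3 wild-type (WT) replicates of 50 pupae each at 38 to 45 h after puparium formation, and the labels give no sex. The epidermal cells were those left attached to the abdominal cuticle after the internal organs were taken out. The values came as 1 list merged over the replicates, so no value has a replicate error and no test between samples could be made. Fold enrichment is the authors' ratio of the reads at a summit to a local background, and the whole number of overlapping reads at each summit was recovered from their values.

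Dpp and Gbb are secreted BMP ligands. They bind receptor complexes of a type I kinase, Tkv or Sax, and a type II kinase such as Put, and the activated complex phosphorylates the Smad protein Mad. Mad enters the nucleus with the co-Smad Medea, where the zinc-finger protein Shn joins them to silence brk, the gene of a repressor that keeps many Dpp target genes off. Dad, an inhibitory Smad, is itself switched on by the pathway and dampens it. In the pupal abdomen the pathway acts in dorsoventral patterning of the adult epidermis.

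The 108 peaks were unevenly shared among the 9 genes. The loci of dpp, tkv, shn and Dad held 89 of them, or 82.4%. Inside the gene spans lay 86 summits, and 22 lay in the sequence beside a gene. Of all 108 summits, 17 were within 500 bp of an end of any annotated gene, coding or not, and the other 91 are called distal here. Over all 34718 peaks, 10855 lay that close to a gene end and 23863 were distal. With 10 or more distal peaks each, dpp (21), tkv (18), shn (25) and Dad (13) made 4 of 9 genes, where 5.78% of 13922 protein-coding genes reached that number. Domain length enters that count. The domain of a gene, meaning its span plus the sequence nearest to it, was 47303 bp for dpp, 53705 bp for tkv, 60215 bp for shn and 19251 bp for Dad, against a median of 4622.5 bp over all protein-coding genes.

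A summit within 500 bp of an end of the gene, whichever gene it was assigned to, was found for 8 of the 9 genes, beside 65.6% of all protein-coding genes. The exception was shn. The gene without a peak of its own by the rule was sax, 1 of 9, and 28.1% of all protein-coding genes had none. No member peak reached 3-fold enrichment (0 of 108), whereas 6.21% of all peaks did. Taking 3 counts of 108 as the limit of a count of 0 would give 2.78%. That limit treats the peaks as independent, which neighbouring peaks are not, so it does not set the members apart. A peak of 3.39-fold at the end of sax was nearer to Nop17l and was not counted.

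**Figure D1:**
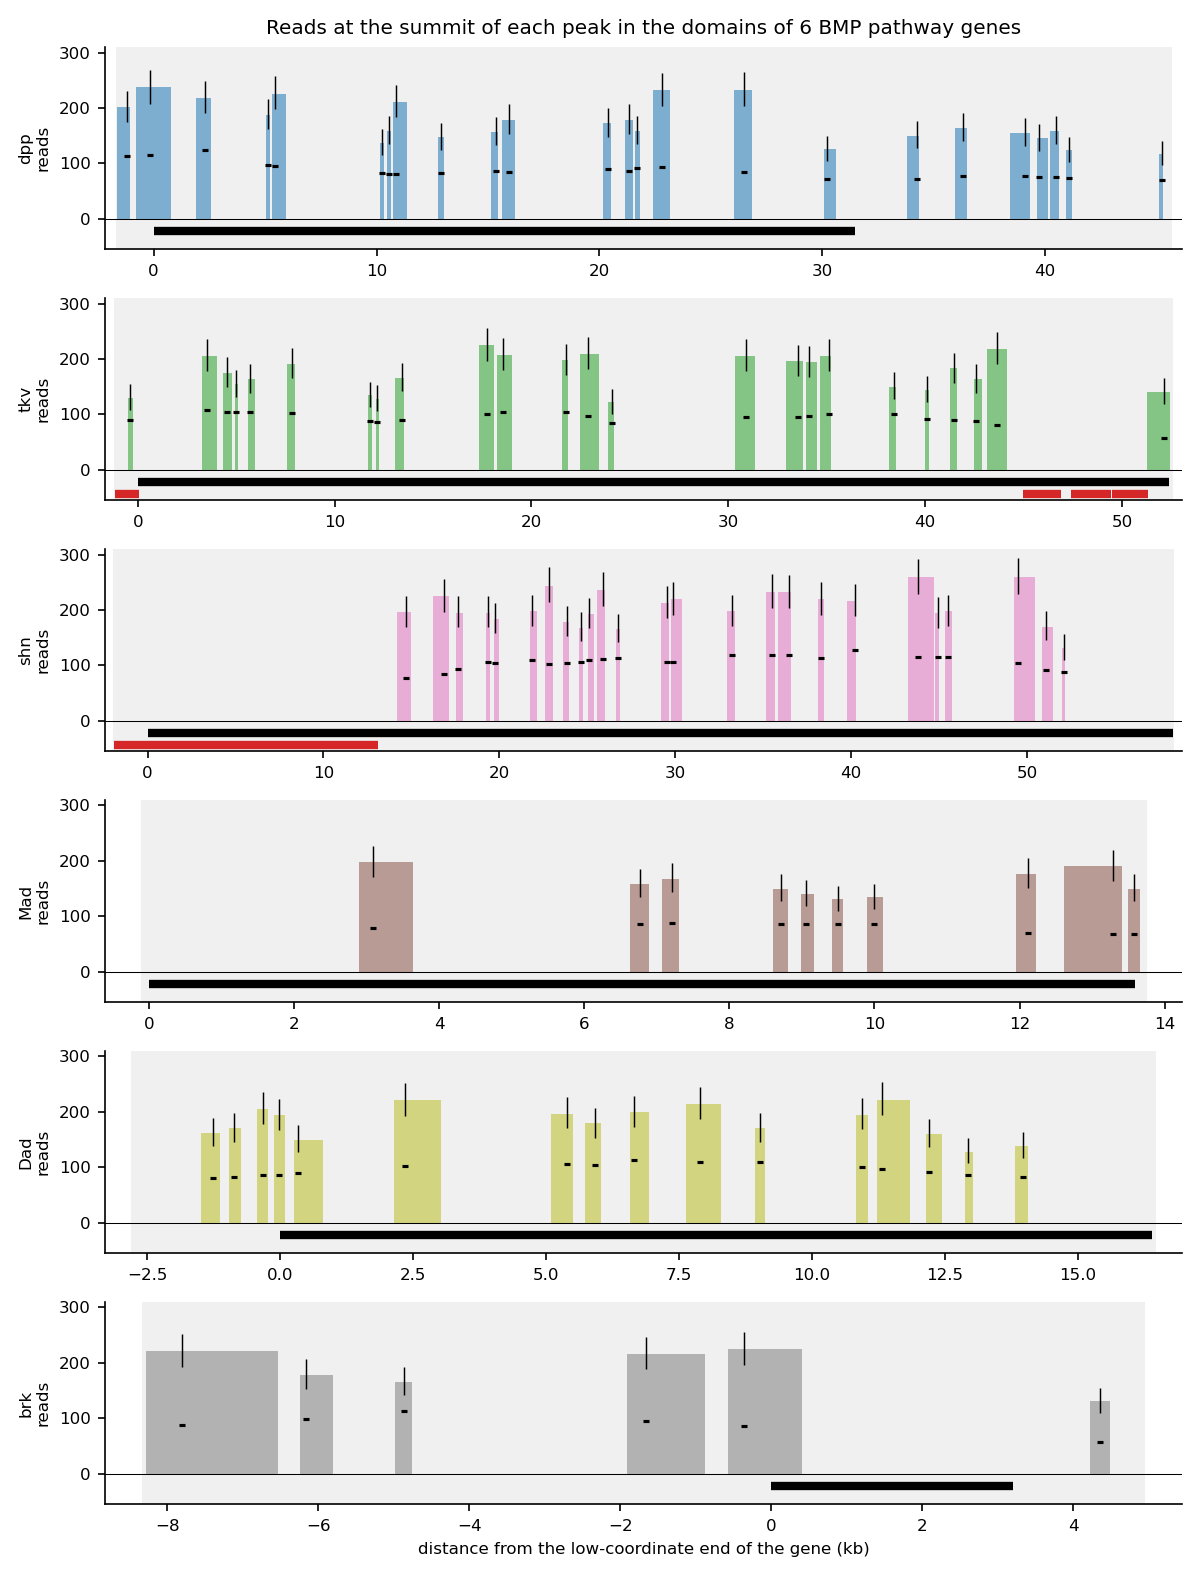
Peaks along 6 of the 9 loci, with the distance from the low-coordinate end of the gene in kb on the horizontal axis and overlapping reads at the summit on the vertical axis. Each coloured bar spans 1 peak, the thin line is the exact 95% Poisson interval of its reads, the short black dash is the local background, the grey field is the domain, the black bar below is the gene, and red bars at tkv and shn are protein-coding genes that overlap them (CG1677, which contains all of brk, is not drawn). The first shn summit lies 14707 bp into the gene, and 5 of the 6 brk peaks lie on its low-coordinate side. The peaks of Mad and Dad, with median gaps between summits of 491 and 744 bp, stand closer together than those of dpp, tkv, shn or brk.

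The ligand gene dpp (chr2L:2428372-2459823) had 24 peaks with 117 to 237 reads at the summit and a median of 161.5. Of these, 15 lay inside the gene, 2 on its low-coordinate side toward CG44139 and 7 on its high-coordinate side toward Slh. Its tallest peak (chr2L:2427590-2429164) lay across the low-coordinate end, with its summit 167 bp outside the gene and 793 of its 1575 bp inside. It held 237 reads (exact 95% Poisson interval 208 to 269, counting error only) over a background of 115.7, a fold enrichment of 2.04. It was thus the tallest of the locus in reads and only moderate as a ratio.

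The highest fold enrichments at dpp were at distal peaks inside the gene. The peak at chr2L:2454422-2455209, 4978 bp from the high-coordinate end, held 233 reads over 83.5 (2.77-fold). At chr2L:2439109-2439754 a second distal peak held 211 reads over 79.8 (2.62-fold), as the tallest of 3 summits within 637 bp. The other 2 of that run held 137 and 159 reads. The interval of the first, 115 to 162, lay below the 183.5 to 241.5 reads of the tall summit, and that of the second, 135 to 186, overlapped it narrowly.

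The 7 peaks on the high-coordinate side of dpp were lower than most of those within it. Enhancers for the imaginal discs are known to lie downstream of the dpp transcription unit, but the gene table used here has no strand. Those 7 peaks held 117 to 164 reads (median 150) over backgrounds of 70.0 to 77.3, and the 15 inside held 125 to 233 (median 178) over 71.7 to 123. All 7 had intervals below that of the 237-read peak at the other end of the gene, the highest of them reaching 191 reads. As ratios the flank and the interior were close, with median folds of 2.003 and 1.939. In the high-coordinate flank 1 summit lay within tRNA:Tyr-GTA-1-3, and on the low-coordinate side 1 lay within lncRNA:CR44912 (201 reads over 112, 1.78-fold).

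The second ligand gene, gbb (chr2R:23851562-23853247), had 1 peak, at chr2R:23851411-23851875. It held 182 reads (156.5 to 210.4) over a background of 64.9, and its 2.78-fold enrichment was the second highest among the top peaks of the 8 genes that had any. This peak sits at the edge of the rule. Its summit lay in the 81 bp between gbb and ytr, 40 bp from gbb and 42 bp from ytr. The peak itself reached into both genes, with 314 of its 465 bp inside gbb. A further peak of 192 reads (2.93-fold) had its summit 448 bp from gbb and 366 bp from ytr, and so was not counted for gbb. Because these genes are close neighbours and no strand was at hand, neither peak can be given to the promoter of either gene.

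Among the receptors, tkv (chr2L:5219000-5271384), which encodes the main type I receptor for Dpp, had 24 peaks of 122 to 225 reads with a median of 179. Only 1 of the 24 summits lay outside the gene, 404 bp from its low-coordinate end and 457 bp from the nearer end of TpnC25D, within whose span it falls. That peak (chr2L:5218511-5218734) was low, with 130 reads over 89.4 (1.45-fold). At the other end, a peak 1162 bp wide (chr2L:5270294-5271455) had its summit 250 bp inside tkv and held 141 reads over 57.2, or 2.44-fold. A background of 57.2 is the lowest in the list and is shared by 26.4% of all peaks, but it occurred at this peak alone among the 108.

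The 2 distal tkv peaks of highest fold enrichment had their summits 43642 and 17741 bp from its low-coordinate end. The peak at chr2L:5262122-5263179 held 218 reads over 80.3 (2.69-fold), and the peak at chr2L:5236348-5237086 held 225 reads (197 to 256) over 101 (2.21-fold). Other genes lie within tkv. A 7.11 kb stretch with no peak (chr2L:5263180-5270293) contains the cytochrome P450 genes Cyp4ac1 and Cyp4ac2 whole. Of the 24 tkv summits, 11 were nearer to an end of Cyp4ac1 and 11 nearer to an end of TpnC25D than to an end of tkv, so that their place in the set rests on lying inside the tkv span. A summit also lay 2 bp from tRNA:Asp-GTC-2-1 (198 reads, 1.90-fold), and others lay within the pseudogene CR14033 and within lncRNA:CR44744.

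The other type I receptor gene, sax (chr2R:7806484-7810067), had no peak by the rule, although a strong peak lay at its end. That peak (chr2R:7805420-7807172) held 222 reads (194 to 253) over 64.8, a fold enrichment of 3.39. Its summit was 52 bp from sax and 47 bp from Nop17l, and 689 of its 1753 bp lay inside sax. A 5 bp difference between the distances to sax and Nop17l thus separated sax from a peak whose ratio exceeded that of every member peak. The remaining 2895 bp of the sax domain, up to TTLL12, held no peak. Of 2346 genes whose domain length was within a ratio of 0.8 in either direction, called genes of like length below, 29.0% likewise had none.

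The type II receptor gene put (chr3R:14619030-14625703) had 2 peaks. The larger (chr3R:14624277-14625837) was 1561 bp wide, of which 1427 bp lay inside put, and its summit was 17 bp outside the gene and 35 bp from the histone gene His4r. It held 226 reads (197.5 to 257.5) over 87.3 (2.57-fold). The smaller peak, 1687 bp inside that end at chr3R:14623950-14624115, held 136 reads (114 to 161) over 79.2 (1.71-fold), and the intervals of the 2 peaks did not overlap. Another peak nearby, of 183 reads, was 350 bp from put and 298 bp from His4r and was not counted. The 4.94 kb of put toward CG14853 held no peak.

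**Figure D2:**
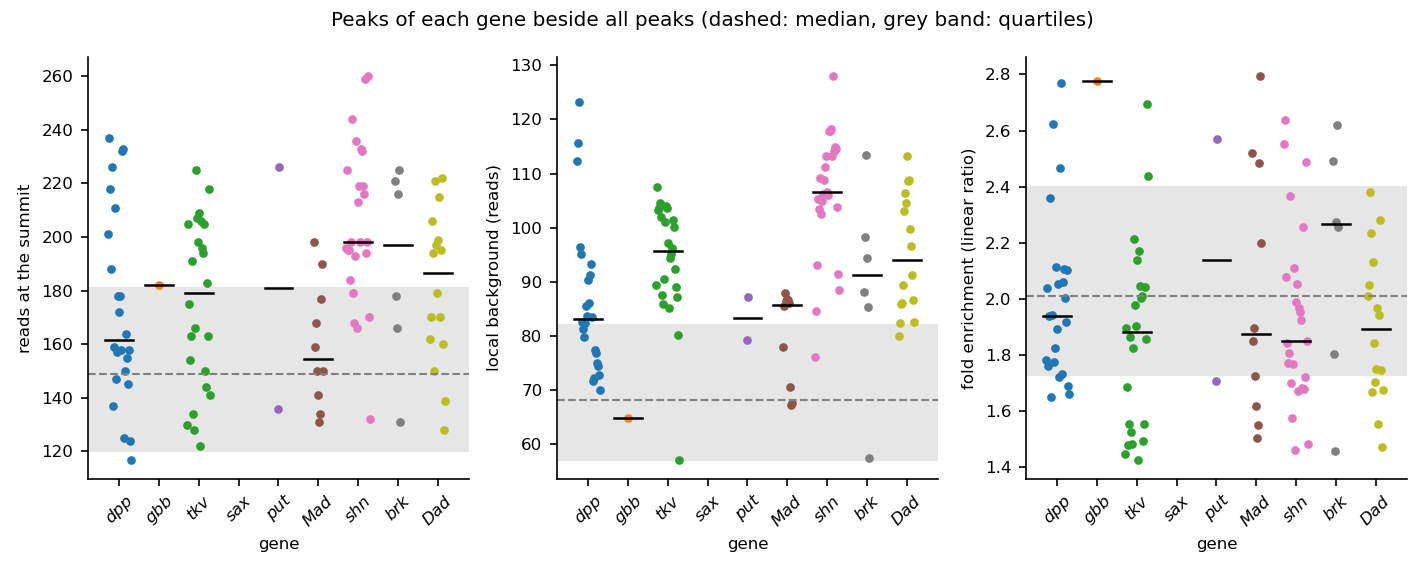
Overlapping reads at the summit, local background and fold enrichment of every peak, by gene, with sax empty. Points are peaks, black lines are the medians of a gene, the dashed line is the median of all 34718 peaks and the grey band its quartiles. The medians of shn lie highest in reads (198) and background (107), while in fold enrichment the medians of dpp, tkv, Mad, shn and Dad lie below the dashed line at 2.01.

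The Smad gene Mad (chr2L:3146056-3159643) had 10 peaks, all with summits inside the gene. They held 131 to 198 reads with a median of 154.5. The peak of highest fold enrichment among all 108 was here, at chr2L:3158676-3159468, with 190 reads over 67.4 (2.79-fold) and its summit 293 bp inside the high-coordinate end. A narrow second peak (chr2L:3159557-3159716) had its summit 11 bp inside the same end and held 150 reads (2.20-fold). The next gene on that side is gkt, 306 bp from Mad. Another summit lay 355 bp outside the low-coordinate end of Mad, toward ND-B14.5B, and was not counted for Mad by the rule.

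Distal peaks at Mad differed in height and width. The peaks at chr2L:3148944-3149692 (198 reads over 77.9, 2.52-fold) and chr2L:3158001-3158285 (177 reads over 70.7, 2.48-fold) had the highest ratios. In the middle of the gene stood 4 narrow peaks, 155 to 221 bp wide, with their summits within 1278 bp (chr2L:3154662-3156176). They held 131 to 150 reads over 86.0 to 86.8, with folds of 1.51 to 1.73. All 4 of their intervals overlapped one another.

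The cofactor gene shn (chr2R:11159086-11217394) had 25 peaks, all inside the gene and all distal. The summits nearest to its ends, both outside the gene's domain, lay 9012 bp from the low-coordinate end and 1844 bp from the high-coordinate end. The first 16.1 kb of its domain (chr2R:11157190-11173266) held no peak, and CG13229 overlaps the same end of shn by 13.1 kb. The last 6.14 kb (chr2R:11211264-11217404) held none either. Of the 25 summits, 16 were nearer to an end of CG13229 than to an end of shn.

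The shn peaks were tall over a high background. Their reads ran from 132 to 260 with a median of 198, and 24 of 25 were above the median of all peaks (149). Their backgrounds ran from 76.1 to 128 with a median of 107, and all 25 were above the median of all peaks (68.1). The tallest member peak of all, chr2R:11208339-11209535, held 260 reads (229 to 294) over 104 (2.49-fold), and chr2R:11202304-11203808 held 259 reads over 114 (2.26-fold) in a width of 1505 bp. In fold enrichment the leading pair were the first peaks after the empty 16.1 kb, at chr2R:11175302-11176218 (225 reads over 84.7, 2.64-fold) and chr2R:11173267-11174089 (196 reads over 76.1, 2.55-fold). The longest run of summits less than 1 kb apart in the gene counted 5, over 2886 bp (chr2R:11182737-11185924), with 166 to 236 reads.

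The repressor gene brk (chrX:7307939-7311132) is short, and it lies within the 125 kb span of CG1677 and within lncRNA:CR44357. None of its 6 summits lay inside brk itself. On the low-coordinate side, toward unc-119, 5 summits lay 363 to 7800 bp from the gene and held 166, 178, 216, 221 and 225 reads. On the other side, toward Atg5, the single peak (chrX:7312160-7312416) held 131 reads (109.5 to 155.4) over 57.5. The intervals of the 3 tallest low-side peaks lay wholly above that of this peak. As a ratio it did not stand apart, at 2.26-fold beside 1.46 to 2.62 on the low side (median 2.275).

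The peak at the low-coordinate end of brk (chrX:7307365-7308340) had its summit 363 bp outside the gene and 402 bp of its width inside. It held 225 reads (197 to 256) over 85.3, or 2.62-fold. The distal peaks of highest ratio were at chrX:7299651-7301408 (221 reads over 88.2, 2.49-fold), which at 1758 bp was the widest of the 108, and chrX:7306022-7307064 (216 reads over 94.4, 2.28-fold). Together the brk peaks covered 35.5% of its domain. Only 0.469% of 1278 genes of like length were covered to that extent. Every brk summit also lay inside CG1677, so the same peaks count for CG1677 by the rule as well.

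The inhibitory Smad gene Dad (chr3R:17054007-17070408) had 16 peaks with 128 to 222 reads and a median of 186.5. At its low-coordinate end, toward Patr-1, 5 summits stood within 1607 bp (chr3R:17052521-17054801). The 3 within 500 bp of the end held 206 reads (2.38-fold, 320 bp outside), 194 reads (2.24-fold, 27 bp outside) and 150 reads (1.67-fold, 334 bp inside). Inside the gene the distal peaks of highest ratio were chr3R:17065220-17065845 (222 reads over 96.7, 2.28-fold) and chr3R:17056135-17057023 (221 reads over 103, 2.13-fold). The 4 peaks on the outer side had a median fold of 2.14 and the 12 inside a median of 1.75, while their median reads were 182 and 187. The local background was 80.0 to 86.2 outside and 82.7 to 113 inside. The 2.39 kb of the domain next to Ns1 held no peak.

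Set against genes of like length, Dad stood highest of the 9 genes in distal peaks. Its 13 distal peaks compared with a median of 4, and 15 of 1010 genes of like length (1.49%) had at least as many. Mad came next, with 8 distal peaks against a median of 3 and 90 of 1261 genes (7.14%) at or above it. For shn, with 25 against a median of 12.5, the share was 16.3%, and for dpp, with 21 against 11, it was 17.8%. The shares were higher for brk (25.7%, 5 against a median of 2), tkv (35.1%, 18 against 12) and put (56.6%, 1 against 1). No distal peak was found at gbb or sax. By covered sequence, the share of like-length genes covered at least as far was 0.469% for brk and 1.78% for Dad (30.7% of its domain covered). It was 5.64% for dpp (25.8% covered), 7.33% for tkv (24.7%), 16.7% for shn (21.3%), 18.3% for put (24.1%) and 19.6% for Mad (23.4%). For sax (20.3% covered) it was 23.7%, and for gbb (20.4%) 29.4%.

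**Figure D3:**
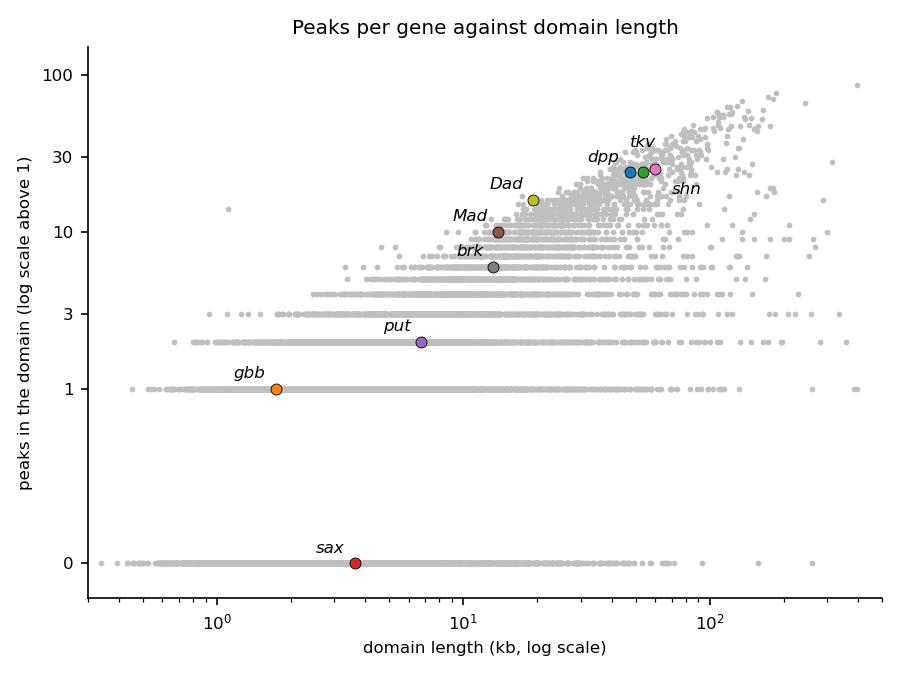
Number of peaks in the domain of each protein-coding gene against the length of that domain in kb, both on log scales except between 0 and 1 peak. Grey points are protein-coding genes and coloured points the 9 BMP pathway genes. Dad, with 16 peaks, lies along the upper edge of the grey points of its length, while dpp, tkv and shn lie among them.

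Over all 9 genes the domains added up to 219.666 kb and held 4.14 distal peaks per 10 kb, against 1.83 over the domains of all protein-coding genes, in which sequence of nested genes is counted more than once. Peaks covered 24.99% of the member domains and 11.6% of all domains. Leaving out any 1 of the 9 genes kept the density between 3.89 and 4.40.

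The heights of the member peaks depended on the scale used. In reads, 88 of 108 (81.5%, exact 95% interval 72.9 to 88.3%) were above the median of all peaks, with a median of 182.5 against 149. The local background was above its median in 103 of 108 (95.4%, 89.5 to 98.5%), with a median of 91.4 against 68.1. In fold enrichment 42 of 108 (38.9%, 29.7 to 48.8%) were above the median of all peaks, with a median of 1.91 against 2.01. These intervals cover counting error only, and neighbouring peaks share their background and are not independent. Distal peaks had lower folds than gene-end peaks over the whole list. Among distal peaks alone the median fold was 1.89 for the members and 1.92 for all peaks. Among gene-end peaks it was 2.06 for the members (n = 17) and 2.24 for all peaks. Gene ends here are those of any annotated gene. Some of the 17 summits, at dpp and tkv, lay at ends of tRNA genes, lncRNA genes or a pseudogene, with folds of 1.43 to 2.06. At the members' own ends the folds ran from 1.45 at tkv to 2.79 at Mad, so the 2.06 does not describe those ends alone. Reads come from all cells left on the cuticle, so that more cells with an open site and a more open site in each cell cannot be told apart.

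**Figure D4:**
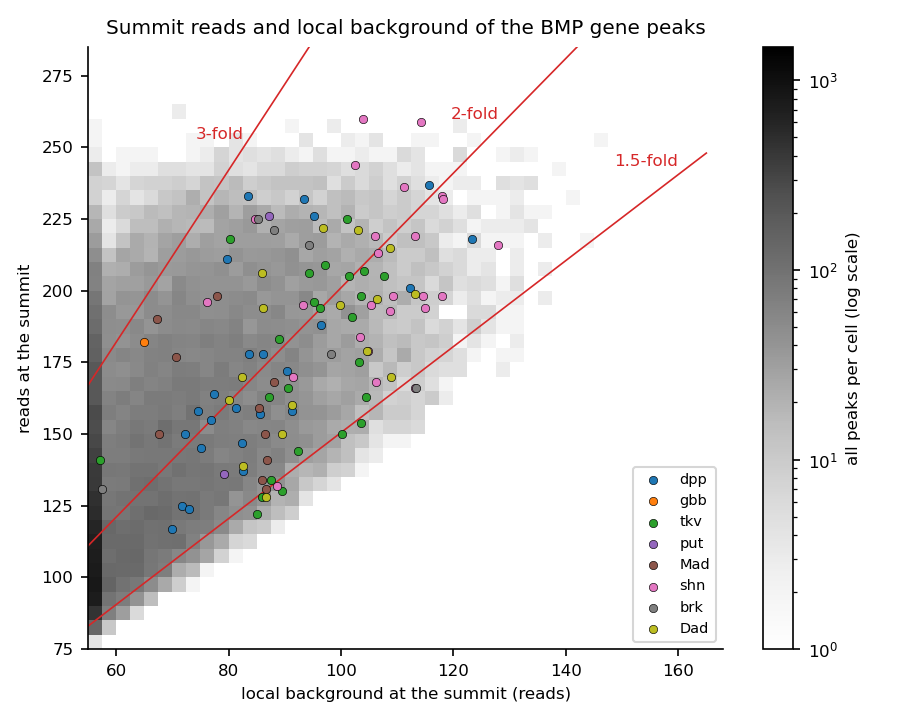
Overlapping reads at the summit against the local background for the 108 member peaks, coloured by gene, over a grey map of all 34718 peaks whose shade gives peaks per cell on a log scale. Red lines mark fold enrichments of 1.5, 2 and 3. Of the 108 member peaks 1 lies at the background floor of 57.2, in the dense grey column, and 1 lies just right of it at 57.5, while none lies above the 3-fold line.

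The number of neighbouring peaks moves with the background over the list. Across all 34718 peaks the rank correlation of background with the number of other summits within 5 kb was 0.583, and across the 108 it was 0.233. Peaks are not independent, and no p is given. The medians of reads and background by class of neighbour number were as follows. With 0 or 1 neighbour the member peaks had 136 reads over 57.4 (n = 2), against 125 over 57.2 for all peaks. With 2 or 3 they had 192 over 87.9 (n = 30), against 142 over 61.8, and with 4 or 5 they had 188.5 over 94.3 (n = 42), against 154 over 73.5. With 6 or 7 they had 184 over 89.5 (n = 21), against 160 over 83.3, and with 8 or more 170 over 105 (n = 13), against 169 over 91.6. In fold enrichment the members had the lower median with 2 or 3 neighbours (2.06 against 2.12), with 4 or 5 (1.90 against 1.99) and with 8 or more (1.70 against 1.78). They had the higher one with 0 or 1 (2.35 against 2.13) and with 6 or 7 (1.94 against 1.86). The part of neighbouring peaks in the members' values was not tested.

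The tallest peaks of the genes were ordered only in part. From 260 reads at shn through dpp (237), put (226), tkv and brk (225 each), Dad (222) and Mad (198) to gbb (182), each interval overlapped that of the next gene. The interval of the shn peak (229 to 294) lay wholly above those of Mad (171 to 228) and gbb (156.5 to 210.4). These are the tallest of 25 peaks at shn, of 10 at Mad and the only 1 at gbb. The intervals do not cover that choice of the tallest from unequal numbers of peaks. Of the 108 peaks, 27 (25%) had more than 207 reads, a level that 9.89% of all peaks exceeded. Widths were less distinct. Their median was 389.5 bp, beside 357 bp for all peaks, and 9 peaks (8.33%, beside 5.67% of all peaks) were 1 kb or wider: 3 at tkv, 2 each at brk and shn, and 1 each at dpp and put.

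Among 46 other genes of BMP and activin signalling, 40 had a summit within 500 bp of an end, beside 65.6% of all protein-coding genes. The domains of the 46 genes held 3.43 distal peaks per 10 kb, beside 1.83 over all protein-coding genes. The other BMP ligand gene, scw, which acts with dpp in the early embryo, had no gene-end peak, and its 63.3 kb domain held 2 peaks and 0.316 distal peaks per 10 kb. All 4 activin-branch ligand genes had a gene-end peak, and the most distal peaks of any of them was 2, at daw and at myo. Both further receptor genes, babo and wit, had a gene-end peak and 2 distal peaks each. The co-Smad gene Med had a gene-end peak and 4 distal peaks, and Smox, the activin-branch Smad gene, had none within 500 bp, its nearest summit lying 655 bp away.

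Extracellular modulators of BMP signalling held 4.07 distal peaks per 10 kb, near the 4.14 of the 9 genes, and intracellular regulators held 4.09. The former had gene-end peaks at 11 of 13 genes, all but tsg and the collagen IV gene vkg, and were led by dally, the gene of a glypican, with 34 distal peaks. The latter had them at 8 of 8, led by Snoo, the Ski-related gene, with 44. Without dally the density of the modulators was 3.84, and without Snoo that of the regulators was 3.72, both left out after seeing the data. The density was 3.33 for target genes, 2.79 for the Smad genes of the list, 2.07 for its receptor genes and 1.64 for activin-branch ligand genes. Of 16 target genes 14 had a gene-end peak. The exceptions were zen and bam, known as targets in the early embryo and the germ line, and Ubx led with 40 distal peaks.

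**Figure D5:**
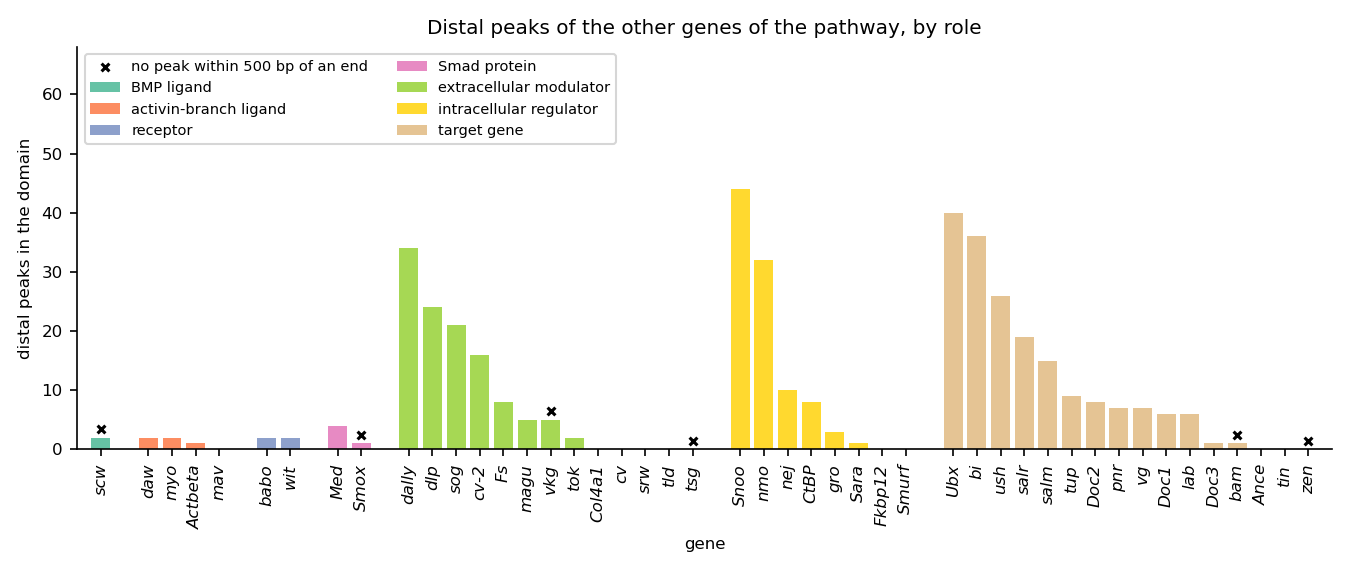
Number of distal peaks in the domain of each of 46 other BMP and activin pathway genes, as bars from 0, grouped and coloured by role. A cross marks a gene with no summit within 500 bp of an end. The tallest bars are Snoo (44), Ubx (40), bi (36), dally (34) and nmo (32), and 6 genes carry a cross.

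Marker genes of the epidermis and of other cell types were counted in the same list. Over all protein-coding genes, 65.6% had a summit within 500 bp of an end, and the domains held 1.83 distal peaks per 10 kb. The marker lists are short, and several of their gene-end counts lie near that share. Epidermal markers had a gene-end peak at 6 of 7 genes and 4.38 distal peaks per 10 kb, and neuronal markers at 3 of 5 and 0.573. Muscle markers had one at 6 of 6 and 2.62 distal peaks per 10 kb, fat body at 3 of 4 and 1.06, hemocytes at 3 of 4 and 3.13, trachea at 2 of 3 and 3.33, and oenocytes at 2 of 3 and 1.57. Of the 14 distal peaks of the hemocyte list 12 lay at srp, and without srp, left out after seeing the data, its density was 0.873. The gene with the most distal peaks was left out of each other list in the same way. The density was then 3.76 for epidermis (without vvl), 2.64 for trachea (without trh) and 2.19 for muscle (without Tm1). It was 0.635 for fat body (without Lsp1beta) and 0.514 for neurons (without brp). The oenocyte list held sv, a chromosome 4 gene that is not an established oenocyte marker. Its 2 of 3 and 1.57 therefore do not describe oenocyte genes alone. Without sv the density rose to 2.28, over Desat1 and Cyp4g1 only. The part of such cells in the peaks of the 9 genes was not tested.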

How the data were processed

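ATAC-seq was done on 3 replicates of 1 group. The tools named in the submitters' processing notes are BWA, SAMtools, Picard and MACS2, on build dm6. How the replicates were combined, and all versions and settings, are not given in the sources used. Each peak as deposited carries a linear fold enrichment (a ratio), a −log10 p, a −log10 q, a summit position and a display score, as the authors' peak caller gave them, and the score was not used.

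The depth of each replicate is unknown. Reads at a summit and background were solved from fold = (reads + 1) / (background + 1) and the Poisson tail behind the −log10 p. A whole number was found for every peak within 0.002, the largest residual was 0.00014, and the next whole number missed by at least 0.0124. Recovery was also tested on simulated summits.

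Peaks were assigned with a RefSeq table of gene spans for the same Release 6 assembly, with 13922 protein-coding genes of 17684 annotated, and coordinates are 1-based. The table has no strand, exon or UTR, and no sequence was used here, so no motif was searched. A domain is the span plus the sequence nearest to the gene, and it may overlap that of a nested gene. Poisson and binomial intervals are exact and cover counting error only. The values are descriptions, with no test.

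Positions are given for the counted peaks at an end of each gene and for its 2 distal peaks of highest fold. They are also given for peaks named in addition after their values were seen. In the wider pathway, the gene with the most distal peaks in each role and every gene without a gene-end peak are named. The 9 genes, the pathway list and the marker list were chosen with earlier results of these data known. Python 3.11.15, pandas 2.3.3, NumPy 2.4.6 and SciPy 1.17.1 were used. Alternatives covered the peak threshold, the genes that bound a domain, the gene-end distance, the unit of counting and leaving out each gene.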

Additional observations from a re-analysis of the deposited data

How the results depend on the processing

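Keeping the 17359 peaks with the highest −log10 q, 50% of the list, left 57 member peaks, 2.05 distal peaks per 10 kb, 17.7% of the domains covered and a median fold of 2.11, where the median of all peaks kept was 2.40. With fewer peaks kept, the counts fall and the fold rises by construction. Assigning summits to the nearest protein-coding gene end with gene spans ignored, an alternative chosen after seeing the data, left 70 peaks and 2 genes with 10 or more distal peaks, because tkv fell to 2 peaks and shn to 9. Read as summit reads in place of fold enrichment, the median (182.5) lay above that of all peaks (149), the reverse of the fold. Under the other settings run, the number of peaks was 83 to 110, the distal density 3.51 to 4.46 per 10 kb and the median fold 1.90 to 1.93. Genes with a gene-end peak numbered 7 or 8 under the settings run for them, and those with 10 or more distal peaks 3 or 4 under all but the spans-ignored setting. Leaving out each replicate was not run on the merged list. No paired analysis was possible because all replicates belong to 1 group and share 1 list. Depth limits the order of single peaks: among the tallest peaks of the genes, the intervals of neighbouring ranks overlap.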
